A study of Schmidtea mediterranea with 6 samples.

Results

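The most abundant transcripts of regenerating planarian trunks were described in RNA-seq libraries of Schmidtea mediterranea, a freshwater flatworm that rebuilds lost body parts from adult stem cells. A transcript was taken as abundant when its mean over the 3 control libraries was at least 1000 normalised TPM (TPM is a length-corrected part of the library, rescaled here by the authors between libraries), and 161 of the 26558 transcripts of the table met this rule. Asexual animals had been injected with double-stranded RNA against cct3A, which encodes a subunit of the cytosolic chaperonin TRiC, or, in the controls, against gfp, a sequence absent from planarians. Heads and tails were cut off, and the remaining trunks were sampled at 72 hours of regeneration (72hR). Each library held RNA of 5 pooled trunks, with 3 libraries of cct3A(RNAi) and 3 of gfp(RNAi). By the study's account all these animals had been starved, though their titles are silent on feeding, and no fed animals were compared. The labels give replicate numbers but no separate cultures, so the spread is that between pools of trunks. RNA came from whole trunks that mix many cell types, so fewer cells of a type and less RNA per cell cannot be told apart.

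In most animal tissues a small set of transcripts fills a large part of the messenger RNA pool. Such transcripts commonly encode parts of the translation machinery, the cytoskeleton and the cytosolic chaperones, together with products that single cell types make in bulk. TRiC is a ring of related subunits that folds newly made actin and tubulin, and these clients belong to the abundant transcripts of nearly every animal cell. Since a share is a part of a fixed whole, a transcript can gain share only where others lose it.

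Gene tables of the study named 8 of the 161 abundant transcripts, and no source used here pairs the other 153 identifiers with a gene. The named ones were EEF1A1 (dresden_comp30_c0_seq1), a translation elongation factor that brings aminoacyl-tRNA to the ribosome, and ACTB (dresden_comp37_c0_seq1), a cytoplasmic actin. TUBB4B, a beta-tubulin, was the name of 4 transcripts (dresden_comp83_c0_seq1, dresden_comp152_c0_seq1, dresden_comp471_c0_seq1 and dresden_comp472_c0_seq1). HSP90AA1 (dresden_comp56_c0_seq1) encodes the cytosolic chaperone HSP90, and DNAJA4 (dresden_comp147_c0_seq1) encodes a DNAJ co-chaperone that works with HSP70. Of the 161 transcripts, 7 came from an assembly component with another contig in the table, and 4 shared their component with another abundant transcript.

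The choice rested on the control values, so those levels are given as a description. The lowest 3 included transcripts had control means of 1002.5, 1029 and 1030 normalised TPM, and the highest 3 left outside had 991.3, 992.5 and 999.3. EEF1B2, a subunit of the exchange factor that recharges EEF1A1, was among the latter with 992.5 ± 27.7 (SD, n = 3). The control SD at this border reached 138 for an included transcript, so the border does not separate neighbours beyond their spread.

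The deposited values summed to between 959963 and 999939 normalised TPM in the controls and between 1004959 and 1048445 in cct3A(RNAi). They keep no sequencing depth, and the precision was judged from the replicates. The label check was met by cct3A (dresden_comp435_c0_seq1), which was at 386 to 403 normalised TPM in the controls and at most 14.03 in cct3A(RNAi). cct3A itself lay below the border in both groups. No 2 libraries held the same values (0 identical pairs).

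The first question was how much of each library the abundant transcripts held. The 161 transcripts, 0.606% of those listed, made up 41.1%, 41.0% and 42.1% of the library sum in the 3 controls, and 42.5%, 42.4% and 43.2% in cct3A(RNAi). The groups did not overlap, and the means were 41.4% ± 0.608 and 42.7% ± 0.462 (SD, n = 3), a difference of 1.25 percentage points. No test is given for this difference, since the control values also chose the transcripts. The libraries numbered 3 were the highest of each group, also in their sums, and the range within the controls (1.10 points) was nearly as large as the difference between groups. Without the libraries numbered 3 of both groups, a setting chosen after the values had been seen, the difference was 1.34 points.

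A ranking made separately in each library treats both groups alike. The 100 most abundant transcripts of each library held 33.3%, 33.3% and 34.4% in the controls and 35.2%, 34.6% and 35.6% in cct3A(RNAi), a difference of 1.47 percentage points. The groups did not overlap, which with 3 libraries against 3 gives p = 0.10 in an exact two-sided permutation test, the smallest p this design allows. The 10 most abundant held 11.2%, 11.4% and 11.9% in the controls against 11.8%, 11.7% and 12.2%, and here the groups overlapped (exact permutation p = 0.30). The most abundant transcript alone (dresden_comp2_c1_seq1, not named) held 3.60%, 3.65% and 3.95% in the controls and 3.65%, 3.75% and 4.03% in cct3A(RNAi), again with overlap (exact permutation p = 0.50). The number of transcripts that together filled 50% of the sum was 289, 294 and 270 in the controls and 253, 265 and 244 in cct3A(RNAi) (exact permutation p = 0.10). On the deposited scale, 159, 158 and 168 transcripts reached 1000 in the controls and 170, 168 and 174 in cct3A(RNAi), with the third control equal to the second cct3A(RNAi) library (exact permutation p = 0.20). The 5 exact tests of this paragraph were not adjusted for their number, and none could pass 0.05.

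**Figure D1:**
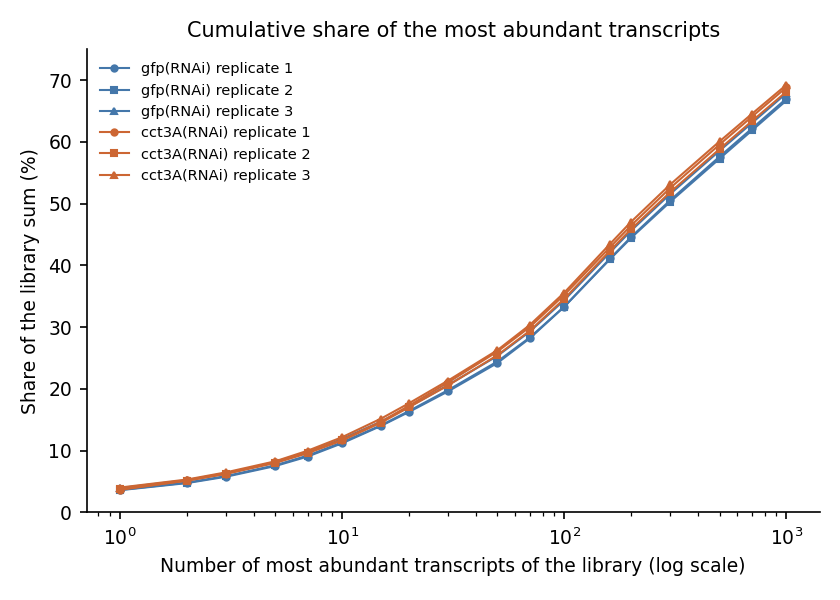
Share of the library sum (%, vertical axis) held by the most abundant transcripts of each library, against how many are counted (log axis), with 1 line for each of the 3 gfp(RNAi) and 3 cct3A(RNAi) libraries. At 100 transcripts the controls lie between 33.3% and 34.4% and cct3A(RNAi) between 34.6% and 35.6%, whereas at 10 transcripts the groups overlap.

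The share gained at the top was set beside the other levels of abundance. The 1154 transcripts with control means of 100 to 1000 held 29.4% ± 0.099 in the controls and 29.6% ± 0.263 in cct3A(RNAi) (SD, n = 3), and their groups overlapped. The 7960 transcripts at 10 to 100 held 25.2% ± 0.420 and 24.2% ± 0.424, a difference of -1.07 percentage points without overlap. The 8925 transcripts at 1 to 10 held 3.54% ± 0.158 and 3.24% ± 0.0987, without overlap. Since the control means chose these classes, they were also formed on the cct3A(RNAi) means. The 169 transcripts of at least 1000 there held 42.0% ± 0.618 in the controls and 43.7% ± 0.635 in cct3A(RNAi), and the class at 10 to 100 differed by -1.15 points. The class of at least 1000 was thus higher and that of 10 to 100 lower in cct3A(RNAi) with either choice. The class of 100 to 1000 changed sign with the choice. Its difference was 0.125 points on the control means and -0.159 points on the cct3A(RNAi) means, with overlapping groups in each. The second choice favours transcripts that are high in cct3A(RNAi). It let in dresden_comp4_c1_seq1 (4454, 166 and 3185 normalised TPM there) and dresden_comp7_c0_seq1 (2146, 163 and 1624), each high in only some of those libraries.

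**Figure D2:**
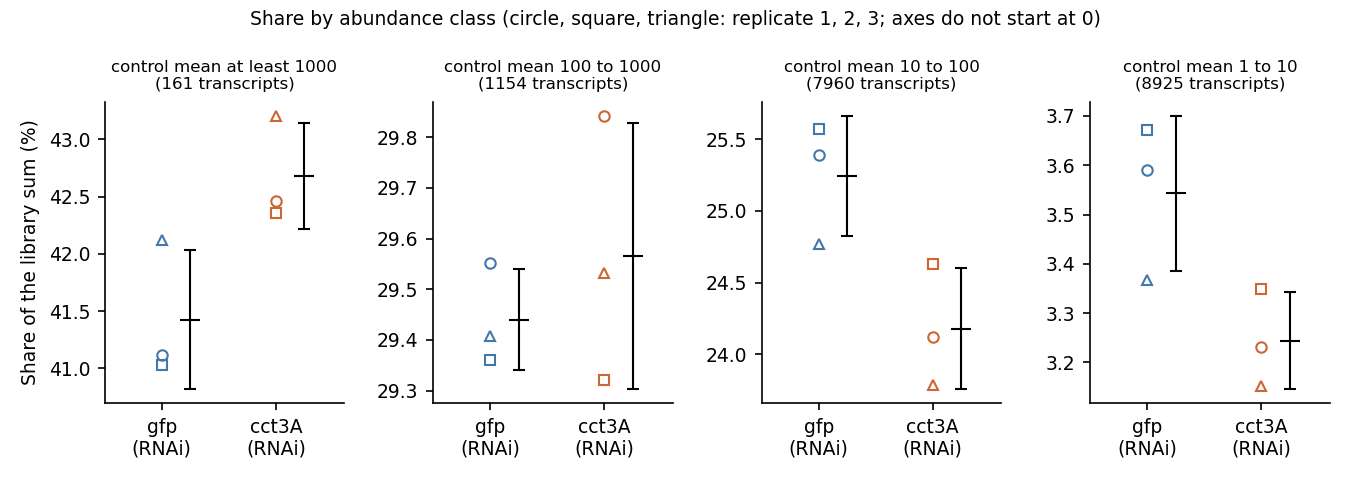
Share of the library sum (%) of 4 classes of transcripts formed on the control mean, with 1 point per library and the group mean ± SD (n = 3) beside the points. The vertical axes differ and do not start at 0. The 161 abundant transcripts range from 41.0% to 42.1% in gfp(RNAi) and from 42.4% to 43.2% in cct3A(RNAi), and the triangles (replicate 3) are the highest of each group.

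The next question was whether the abundant transcripts kept their order. The same 10 transcripts were the top 10 of all 6 libraries, and the first 4 places were held by the same transcripts in the same order in every library. Of the top 20, 19 were shared by all libraries out of 21 that appeared in any, of the top 50, 45 out of 59, and of the top 100, 91 out of 111. Among the 161 abundant transcripts, 150 were in the top 161 of every library, and the lowest place that any of them took was 187. The range of a transcript's rank over the 6 libraries had a median of 12 places, was at most 20 for 120 transcripts and exceeded 40 for 8. Within a group of 3 libraries the median range was 5 places in the controls and 7 in cct3A(RNAi). For 52 of the 161 the ranks did not overlap between the groups, a number not counted over all transcripts. The mean ranks of the groups differed by a median of 4.33 places. Spearman's rho over the 161 transcripts was 0.985 to 0.990 between controls, 0.980 to 0.988 between cct3A(RNAi) libraries and 0.953 to 0.977 between libraries of different groups. These correlations are across transcripts of shared libraries and are a description.

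Below the most abundant transcript, whose mean was 36430 normalised TPM in the controls and 39138 in cct3A(RNAi), the levels dropped steeply. The second (dresden_comp3_c0_seq1, not named) was at 11036, 11267 and 12778 in the controls and at 15653, 13931 and 13634 in cct3A(RNAi). Its groups did not overlap, yet its log2 change in share of 0.23 (SE 0.070) did not pass (limma adjusted p = 0.087). EEF1A1 was the only named transcript among the top 10, at rank 8 to 10 in every library. The other 7 of the top 10 had control means of 6946 to 10476 normalised TPM. No transcript of the top 10 passed the test of a change in share, with log2 changes of -0.16 to 0.23.

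The widest range of ranks, 102 places, belonged to dresden_comp10_c0_seq1, which no table names. It was at 1151, 1208 and 1295 normalised TPM in the controls (ranks 142, 133 and 126) and at 1508, 1936 and 2589 in cct3A(RNAi) (ranks 106, 66 and 40). All cct3A(RNAi) libraries were above all controls, but they differed among themselves with a coefficient of variation (CV) of 27.1%, the highest of the group. Its log2 change in share of 0.61, the largest among the 161, did not pass (limma adjusted p = 0.056). It passed without cct3A(RNAi) replicate 1 (log2 0.80, adjusted p = 0.027) and with a filter at a mean of 5 (0.033), and in none of the other 5 fits that left out 1 library (0.090 to 0.168). The next widest range, 53 places, belonged to a transcript that was lower in share (log2 -0.25, limma adjusted p = 0.061). The 3 that followed had ranges of 46 to 52 places, and their ranks overlapped between groups.

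**Figure D3:**
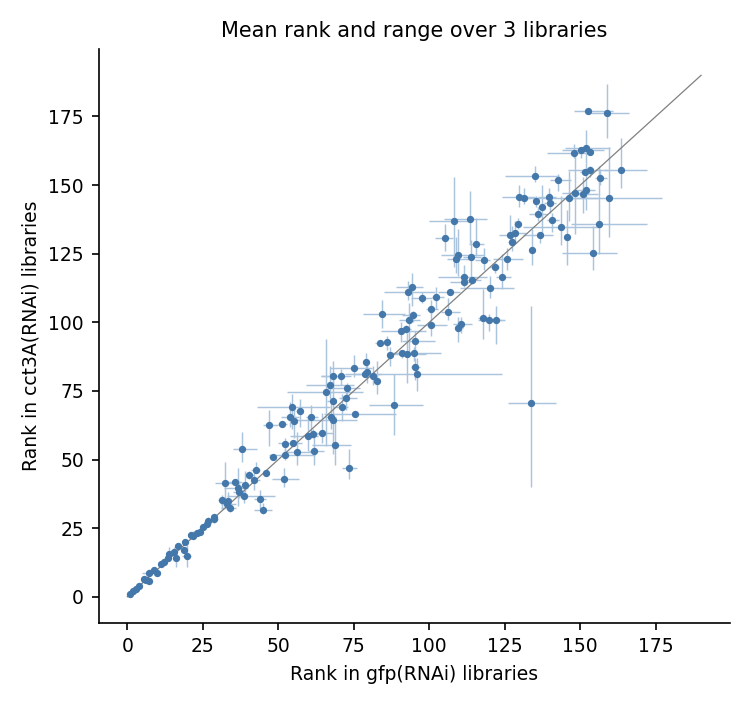
Mean rank of each of the 161 abundant transcripts in the 3 gfp(RNAi) libraries (horizontal axis) and the 3 cct3A(RNAi) libraries (vertical axis), where rank 1 is the most abundant, bars give the lowest and highest rank in the group and the grey line marks equal ranks. Most points lie near the line, and the point far below it is the transcript with ranks 126 to 142 in controls and 40 to 106 in cct3A(RNAi).

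The spread between libraries of a group was small. The CV of the deposited values had a median of 3.42% in the controls (0.50% to 19.6%) and of 3.67% in cct3A(RNAi) (0.173% to 27.1%), and it was below 10% for 154 of the 161 transcripts in the controls and 151 in cct3A(RNAi). The median CV was 3.30% in the controls for transcripts at 100 to 1000 and 10.02% for those at 1 to 10. The highest control CV was that of a transcript without a name (dresden_comp73_c0_seq1) at 1570, 1261 and 1876 normalised TPM in the controls, and at 1846, 1721 and 1981 in cct3A(RNAi), so that its groups overlapped. The most even transcript (dresden_comp112_c0_seq1) was at 2102, 2123 and 2113 in the controls. In 157 of the 161 transcripts the highest of the 6 libraries was less than 1.5 times the lowest.

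The last question was which abundant transcripts gained or lost share in cct3A(RNAi). Each value was divided by its library sum, log2-transformed and tested with limma over all 18069 transcripts with a mean of at least 1, and the adjusted p-values below are from that fit. The controls that chose the transcripts also enter these differences. In share, 10 of the 161 rose (6.21%, against 0.570% of all tested transcripts) and 2 fell (1.24%, against 6.40%), and 149 did not pass. Of the 1154 transcripts with control means of 100 to 1000, the class nearest in abundance, 2.60% rose and 8.49% fell. The log2 change in share had a median of 0.022 among the 161 and of -0.067 over all tested transcripts, with 99 abundant transcripts above 0 and 62 below. In 107 of the 161 the change was within 0.1 of 0 on the log2 scale. Groups of 3 libraries without overlap were seen for 41 transcripts that were higher in share (25.5%, against 4.80% of all tested) and for 28 that were lower (17.4%, against 27.6%).

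On the deposited scale, which keeps the authors' scaling between libraries, the same fit was run on 18062 transcripts. Here 12 of the 161 rose (7.45%, against 1.78% of all tested), among them the 10 that rose in share, and 0 fell (against 2.46%), with 2 lower at an unadjusted p under 0.05. The median log2 change was 0.098 for the 161 and 0.0034 for all tested transcripts, and 135 of the 161 were above 0. Groups without overlap were seen for 70 that were higher (43.5%, against 15.8%) and 5 that were lower (3.11%, against 16.1%). Of all calls, 41.9% were higher on this scale and 8.18% in share. For 36 transcripts the value was higher on the deposited scale and lower in share. Quantile normalisation of the shares gives every library the same distribution and so removes a difference in how much the top holds. After it the median of the 161 was -0.026 against 0.014 for all, 63 were above 0, 4 rose (2.48%, against 1.27% of all tested) and 2 fell (1.24%, against 2.11%).

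These calls rested on few libraries. In share, none of the 161 passed without gfp(RNAi) replicate 1 or without gfp(RNAi) replicate 2 (0 calls by limma, with 21 higher and 14 lower, and 21 higher and 12 lower, at an unadjusted p under 0.05). With the other libraries left out, 3 rose and 2 fell without gfp(RNAi) replicate 3, 2 and 1 without cct3A(RNAi) replicate 1, 8 and 2 without cct3A(RNAi) replicate 2, and 3 and 0 without cct3A(RNAi) replicate 3 (26 lower unadjusted). On the deposited scale the rises were 0 without gfp(RNAi) replicate 1 or 2 (33 and 36 at an unadjusted p under 0.05), 3 without gfp(RNAi) replicate 3, and 1, 4 and 3 without cct3A(RNAi) replicate 1, 2 and 3. Over all tested transcripts, 103 were called higher and 1156 lower in share with all libraries. Dropping a control gave 6 and 18 (replicate 1), 11 and 42 (replicate 2) or 58 and 918 (replicate 3). Dropping a cct3A(RNAi) library gave 30 and 175, 78 and 1356, or 32 and 92, in replicate order. On the deposited scale, 321 higher calls became 9, 12 and 58 for the controls, and 34, 128 and 47 for cct3A(RNAi). Calls were thus fewer in the table as a whole, apart from the 1356 falls. The unadjusted numbers have no such background here.

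**Figure D4:**
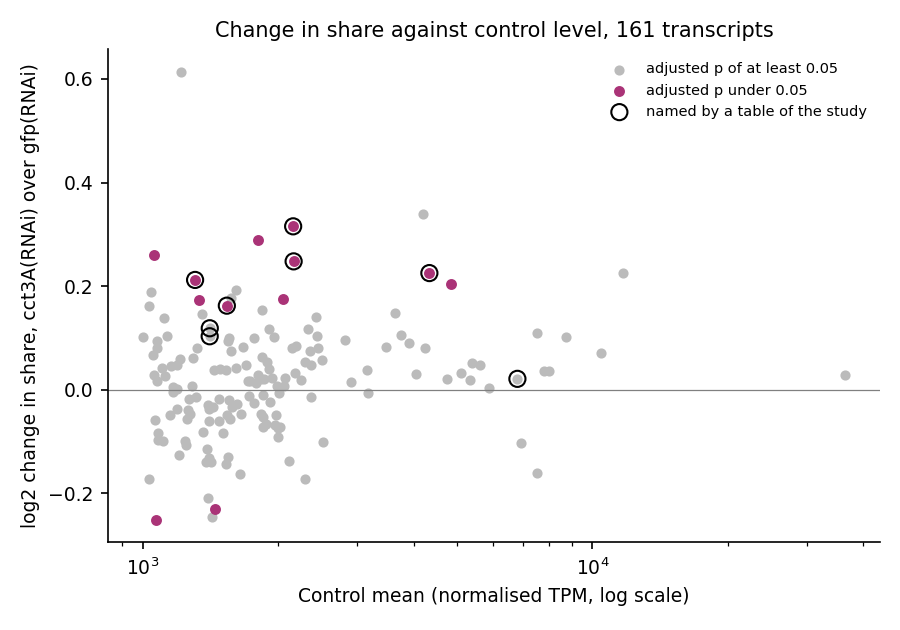
Log2 change in share, cct3A(RNAi) over gfp(RNAi), of the 161 abundant transcripts against their control mean (normalised TPM, log axis), with those past an adjusted p of 0.05 in colour and the 8 named ones ringed. The 10 that rose lie between 0.16 and 0.32, the 2 that fell at -0.25 and -0.23, and the highest point, at 0.61, did not pass.

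In percentage points of the library, the 99 transcripts that were higher in mean share summed to 1.87 and the 62 that were lower to -0.615, which gives the net 1.25. The 5 largest gains summed to 0.547 points. The largest, 0.205 points, was that of the second most abundant transcript (dresden_comp3_c0_seq1), which did not pass, and ACTB was the fourth with 0.0755 points. The 10 transcripts that rose in share summed to 0.395 points. The 2 largest losses, of -0.0815 and -0.0466 points, were those of top 10 transcripts without a name that did not pass.

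Of the 8 named transcripts, 5 rose in share: ACTB, HSP90AA1 and 3 of the 4 of TUBB4B. A supplementary list of the study gives tubulin, actin and cytosolic chaperone transcripts as raised in these same libraries. These names are therefore not independent evidence of a direction. The remaining 153 transcripts without a name held the 5 other rises and both falls. Of all tested transcripts, 0.570% rose in share and 6.40% fell.

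The cytoskeletal transcripts encode clients of TRiC. ACTB was at 4093, 4457 and 4463 normalised TPM in the controls and at 5671, 5192 and 5169 in cct3A(RNAi), so that every cct3A(RNAi) library was above every control. Its share was 0.425%, 0.464% and 0.446% against 0.553%, 0.517% and 0.493%. Its log2 change in share was 0.23 (SE 0.054, adjusted p = 0.0486), a call that was lost when any single library was left out (adjusted p = 0.075 to 0.152) with no filter (0.089) and after quantile normalisation (0.161).

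Among the transcripts of TUBB4B, the tubulin that builds microtubules together with alpha-tubulin, dresden_comp152_c0_seq1 was at 2073, 2142 and 2260 normalised TPM in the controls and at 2886, 2848 and 2754 in cct3A(RNAi). It moved from ranks 42 to 48 to ranks 30 to 34, and its rise in share, a log2 change of 0.32 (SE 0.042, adjusted p = 0.0156) was the largest of those that passed. dresden_comp83_c0_seq1 was at 2132, 2146 and 2214 against 2745, 2715 and 2662, again without overlap. Its share rose by 0.25 (SE 0.036, adjusted p = 0.0183). dresden_comp472_c0_seq1 was at 1308, 1284 and 1325 against 1522, 1663 and 1600 and rose by 0.21 (SE 0.045, adjusted p = 0.0360). dresden_comp471_c0_seq1 was at 1425, 1371 and 1428 against 1659, 1551 and 1624, also without overlap, with a log2 change in share of 0.12 that did not pass (adjusted p = 0.075).

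The 4 TUBB4B transcripts together held 0.720%, 0.723% and 0.723% of the controls and 0.858%, 0.873% and 0.824% of cct3A(RNAi). The controls were almost equal, and every cct3A(RNAi) library was above them. Reads of near-identical tubulins can be split among transcripts by the estimation, which can make single values less certain than their sum. How alike these 4 transcripts are and how reads were split was not tested. Without gfp(RNAi) replicate 1 or 2 none of the 3 single calls passed (adjusted p = 0.080 and 0.0695 for dresden_comp152_c0_seq1). That of dresden_comp83_c0_seq1 was also lost without cct3A(RNAi) replicate 1 (0.052), and that of dresden_comp472_c0_seq1 passed only without cct3A(RNAi) replicate 2 (0.044). The call of dresden_comp83_c0_seq1 was lost after quantile normalisation (0.077) and that of dresden_comp472_c0_seq1 with no filter (0.060).

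Of the cytosolic chaperones, HSP90AA1, which helps many signalling proteins to fold, was at 1527, 1505 and 1578 normalised TPM in the controls and at 1863, 1742 and 1833 in cct3A(RNAi). The groups did not overlap, and its share rose, with a log2 change of 0.16 (SE 0.033, adjusted p = 0.0327). With 1 library left out this call passed only without cct3A(RNAi) replicate 2 (0.041), and it was lost with no filter (0.059) and after quantile normalisation (0.068). DNAJA4, which presents unfolded proteins to HSP70, was at 1400, 1375 and 1447 against 1627, 1526 and 1627. It had no overlap either, and its log2 change in share of 0.10 (SE 0.032) did not pass (adjusted p = 0.085).

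EEF1A1 was the most abundant named transcript. It was at 6628, 6728 and 7075 normalised TPM in the controls and at 7323, 7230 and 7284 in cct3A(RNAi), without overlap on that scale. Its share was 0.688%, 0.701% and 0.708% against 0.713%, 0.719% and 0.695%, and here the groups overlapped. The log2 change was 0.021 in share (SE 0.037, adjusted p = 0.766) and 0.097 on the deposited scale (SE 0.055, adjusted p = 0.308).

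**Figure D5:**
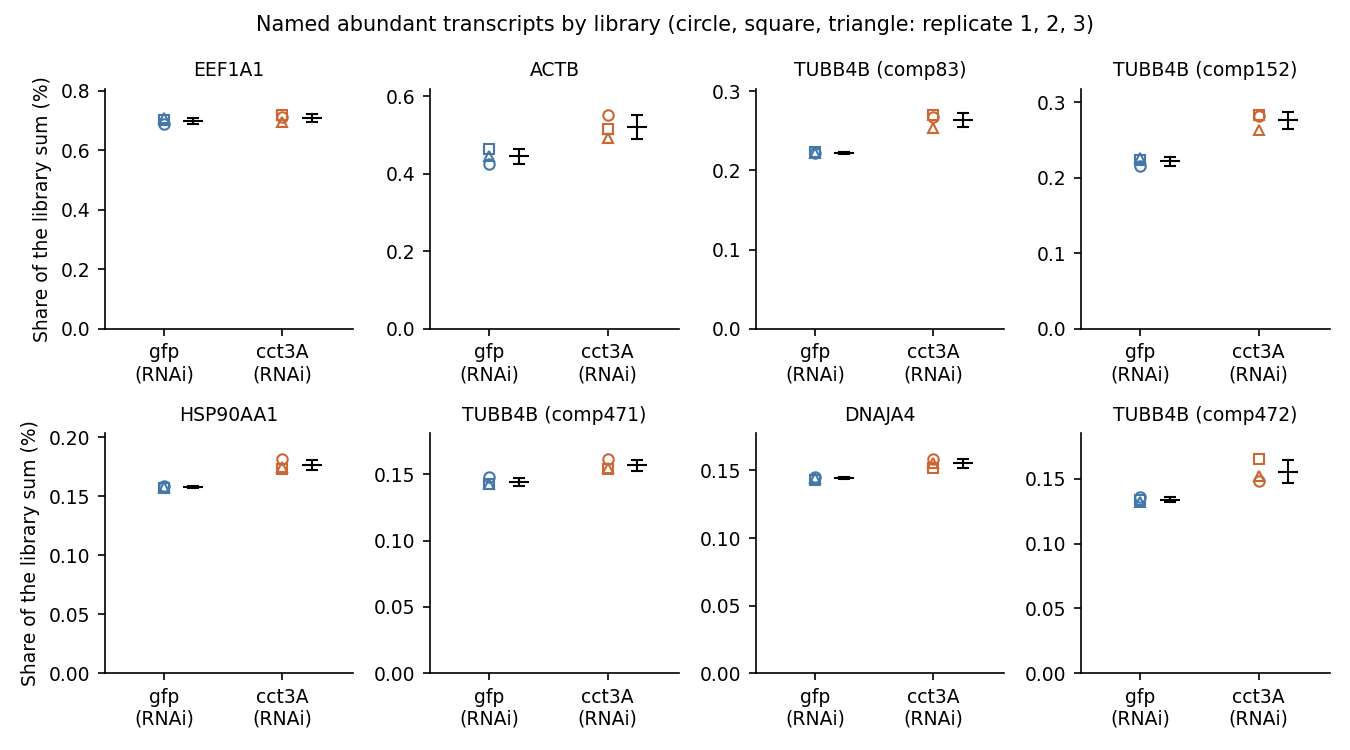
Share of the library sum (%) of the 8 named abundant transcripts, with 1 point per library and the group mean ± SD (n = 3) beside the points, and axes that start at 0. EEF1A1 overlaps between groups (0.688% to 0.708% against 0.695% to 0.719%), and the other 7 are higher in every cct3A(RNAi) library than in every control. Such a rise without overlap was seen for 25.5% of the 161 and 4.80% of all tested transcripts. The study had listed tubulin, actin and cytosolic chaperone transcripts as raised from these same libraries.

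Of the transcripts without a name, dresden_comp68_c0_seq1 and dresden_comp750_c0_seq1 rose most. The first was at 1835, 1744 and 1825 normalised TPM in the controls and at 2431, 2313 and 2219 in cct3A(RNAi), with a log2 change in share of 0.29 (SE 0.048, adjusted p = 0.0241). The second was at 1110, 988 and 1083 against 1326, 1365 and 1319, with 0.26 (SE 0.049, adjusted p = 0.0297). Neither overlapped between groups. The 3 other rises without a name had log2 changes in share of 0.17 to 0.20.

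Both transcripts that fell in share lacked a name. dresden_comp242_c0_seq1 was at 1438, 1432 and 1479 normalised TPM in the controls and at 1295, 1302 and 1308 in cct3A(RNAi), with a log2 change in share of -0.23 (SE 0.031, adjusted p = 0.0156). dresden_comp458_c0_seq1 was at 1073, 1073 and 1054 against 915, 938 and 981, and fell by 0.25 (SE 0.038, adjusted p = 0.0195). Both had no overlap on either scale, but on the deposited scale their changes of -0.16 (adjusted p = 0.055) and -0.18 (0.052) did not pass. Without gfp(RNAi) replicate 1 or 2 neither these falls nor the rises of dresden_comp68_c0_seq1 and dresden_comp750_c0_seq1 passed in share (adjusted p = 0.078 to 0.102). Without cct3A(RNAi) replicate 1 the calls of dresden_comp68_c0_seq1 (0.063), dresden_comp750_c0_seq1 (0.081) and dresden_comp458_c0_seq1 (0.052) were lost. Without cct3A(RNAi) replicate 3 those of dresden_comp750_c0_seq1 (0.071), dresden_comp242_c0_seq1 (0.0503) and dresden_comp458_c0_seq1 (0.058) were lost, and without gfp(RNAi) replicate 3 that of dresden_comp750_c0_seq1 (0.055).

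The named transcripts were then read within their lists, which come from the study's tables, beside the 0.570% of all tested transcripts that rose in share and the 6.40% that fell. Of 11 tubulin and actin transcripts 5 were abundant, of which 4 rose in share, and of the 6 others 2 rose and 0 fell. The median log2 change in share of this list was 0.21. Of 18 cytosolic chaperones 2 were abundant, of which 1 rose, and of the 16 others 4 rose and 0 fell, with a median of 0.11 for the list. Of 35 tested translation factors only EEF1A1 was abundant, and of the 34 others 0 rose and 1 fell, with a median of -0.038. None of the 17 tested chaperones of the endoplasmic reticulum (ER), which fold secreted proteins, was abundant (highest control mean 969 normalised TPM), and 6 of them fell. None of the 8 TRiC subunits, of the 32 tested aminoacyl-tRNA synthetases or of the 10 tested transcripts of glycolysis reached 1000 either, and their highest control means were 392, 117 and 582 normalised TPM. Part of the tubulin, actin and chaperone lists was chosen by the study on these libraries. All lists hold only transcripts that the study named, so whether abundant transcripts without a name belong to these kinds is unknown.

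In cct3A(RNAi), 169 transcripts had a mean of at least 1000 normalised TPM. Of these, 10 had been below in the controls, and 2 of the 161 had dropped below it, among them dresden_comp458_c0_seq1 (945 ± 33.5, SD, n = 3). EEF1B2, with 1064 ± 4.0 (SD, n = 3), crossed the border, but did not pass the test in share (log2 0.026, adjusted p = 0.662). Of the 10, 1 rose in share and 2 on the deposited scale. The one that rose on both (dresden_comp218_c0_seq1, not named and chosen after its values were seen) was at 959, 977 and 1036 normalised TPM in the controls and at 1325, 1261 and 1218 in cct3A(RNAi), without overlap, with a log2 change in share of 0.28 (adjusted p = 0.0221). For 8 of the 10 the control mean was already between 863 and 999 normalised TPM. The other two had means under 212 in the controls. dresden_comp4_c1_seq1 was at 108, 321 and 147 normalised TPM in the controls and at 4454, 166 and 3185 in cct3A(RNAi), and dresden_comp7_c0_seq1 was at 165, 266 and 204 against 2146, 163 and 1624. Both were high in the same 2 cct3A(RNAi) libraries and within the control range or below it in replicate 2, and neither passed (adjusted p = 0.148 and 0.192 in share). Without this pair, a setting chosen after their values had been seen, the share of the top 100 differed by 1.30 percentage points, with no overlap.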

How the data were processed

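RNA was sequenced from pooled regenerating trunks, with each sample's title giving its group and replicate number. The authors pseudo-aligned reads to the Dresden transcriptome using kallisto, for which the submitters' processing notes give version 0.43.0, and normalised with sleuth. The deposited values are a signal, TPM divided by a size factor per library. They are corrected for length, are not counts and keep no depth, so no count model was fitted. Plain TPM had been assumed when the tests were chosen, and the same log-scale test was kept. No column was left unassigned (0 columns).

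Shares are values divided by the library sum, per 1000000. log2(value + 0.5) was tested with limma 3.58.1 in R 4.3.3 (eBayes with a trend, two-sided, Benjamini-Hochberg, threshold 0.05), filtered at a mean of 1 over 6 libraries. Shares of libraries were compared with exact permutation tests. Log2 changes are cct3A(RNAi) over gfp(RNAi).

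The members and lists were chosen with earlier results of these data known. The text names every abundant transcript that the study's gene tables name, the 10 most abundant (some as a range), the extremes of change, rank range and spread, and those at the border. Among abundant transcripts without a name, identifiers of at most 2 that rose and 2 that fell are printed. Alternatives were other pseudocounts, filters, scalings, variance estimates, a replicate block, thresholds and left-out libraries. No genome or sequence was used.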

Additional observations from a re-analysis of the deposited data

How the results depend on the processing

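The numbers of abundant transcripts that rose and fell in share (10 and 2) or on the deposited scale (12 and 0) depended on the setting. In share they were 0 and 0 without a variance trend and 14 and 6 with a filter at a mean of 5. They were 4 and 2 with no filter or after quantile normalisation, and 12 and 0 with median-of-ratios scaling. Over all tested transcripts, these share fits called 5 higher and 31 lower of 18069 without a trend. With the filter at 5 they called 150 and 1582 of 11907, and with no filter 68 and 598 of 25746. After quantile normalisation they called 230 and 382 of 18064, and with median-of-ratios scaling 336 and 427 of 18049. On the deposited scale the abundant transcripts gave 0 and 0 without a trend, 5 and 0 with no filter and 21 and 2 with a filter at 5. They gave 4 and 2 after quantile normalisation and 14 and 2 with robust estimation. Over all tested transcripts, these fits called 9 higher and 24 lower of 18062 without a trend. The numbers were 142 and 172 of 25746 with no filter and 614 and 670 of 11904 with a filter at 5. Quantile normalisation gave 230 and 381 of 18058, and robust estimation 345 and 485 of 18062. With no trend, 21 abundant transcripts were higher and 12 lower in share by limma at an unadjusted p under 0.05. On the deposited scale these numbers were 53 and 2. With both libraries numbered 3 left out, a setting added after seeing the data, they were 0 and 0 on either scale (34 and 21, and 66 and 5, unadjusted). Leaving out 1 library gave 0 to 8 rises and 0 to 2 falls in share, and 0 to 4 and 0 to 0 on the deposited scale. Pseudocounts of 0.1 and 1 left all 4 numbers as they were. The cause of these shifts was not tested. A filter changes the number of transcripts adjusted over, but unadjusted p-values changed as well. In share, 30 were higher at an unadjusted limma p under 0.05 in the main fit, 24 with no filter and 32 with a filter at 5. In each of these fits 17 were lower.

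The correlations of deviations were 0.049, 0.1002 and 0.045 for same-numbered libraries and -0.058 to 0.010 for differently numbered ones. Not all same-numbered values exceeded the limit of 0.1, and the main fit used no block. With 3 libraries per group this limit cannot show that pairing is absent. With the replicate block 7 rose and 2 fell in share, and 13 and 0 on the deposited scale. Of the named transcripts, ACTB (limma adjusted p = 0.082), HSP90AA1 (0.054) and dresden_comp472_c0_seq1 (0.052) did not pass in share with the block. dresden_comp10_c0_seq1, which has no name, did pass with it (0.041).

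The share held was 50.1% in controls and 51.4% in cct3A(RNAi) for the 285 transcripts at a threshold of 500, 25.3% and 26.4% for the 53 at 2000, 42.0% and 43.7% when chosen on the cct3A(RNAi) mean, and 42.1% and 43.4% after rescaling to the same sum. Chosen on all 6 libraries, it was 41.9% and 43.5%, a difference of 1.54 points. Leaving out 1 library gave 40.9% to 42.1% in controls and 42.4% to 43.2% in cct3A(RNAi), differing by 0.988 to 1.58 points. Of 159 to 166 members, 43 to 58 were higher and 29 to 38 lower in share without overlap. These 2 numbers were 69 and 46 at 500, 17 and 3 at 2000, and 68 and 45 without the libraries numbered 3. Fewer libraries make non-overlap easier, and no share of all transcripts is given beside them. The difference of the top 100 was 1.24 to 1.82 points with 1 library left out. dresden_comp3_c0_seq1, second in every library, has a change of 0 after quantile normalisation by construction. Depth is unknown, so counting error could not be set beside these values.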
